A study of Homo sapiens with 12 samples.

Results

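SAT1 and 9 other genes of polyamine metabolism, 10 of the 62656 genes in the count table, were followed across 12 RNA-seq libraries from a pair of established human colorectal cancer cell lines, HCT116 and LoVo. The set was chosen by gene symbol, with measured fold changes of these same libraries already known, so its values are a description and no independent evidence. SAT1 gives the set its name and is given with intervals and without a p. There were 3 libraries in each of 4 groups: HCT116 that overexpressed SLERT, a long non-coding RNA (HCT116 OE), HCT116 control, LoVo labelled SLERT knockdown (LoVo KD), and LoVo control. Column headings of the controls read Vector and ShNC. They were taken as an empty vector in HCT116 and a control shRNA in LoVo. The sources used here do not give the vector, the shRNA sequences or whether a line was 1 clone. They also do not say if replicate libraries were grown as separate cultures, so the p-values reflect only library-to-library spread, which may be technical.

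Polyamines (putrescine, spermidine and spermine) are small positively charged molecules that bind nucleic acids and that dividing cells, colorectal tumours among them, make in quantity. ODC1 makes putrescine from ornithine, AMD1 makes the aminopropyl donor, and SRM and SMS add the aminopropyl groups that give spermidine and then spermine. SAT1 acetylates spermidine and spermine for export or for oxidation by PAOX, SMOX oxidises spermine directly, the antizymes OAZ1 and OAZ2 send ODC1 to the proteasome, and AZIN1 binds the antizymes and so spares ODC1. Much of this control works on translation and protein stability, which RNA levels do not measure.

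Total counts ran from 14.46 to 17.23 M per library. The snoRNAs SNORA5A and SNORA5C form the ends of SLERT and served as its readout. Their rows also count any reads of the snoRNAs themselves, so they do not measure SLERT alone. SNORA5C had 551, 661 and 714 counts in HCT116 OE, against 4, 4 and 8 in HCT116 control. In LoVo it had 11, 14 and 12 counts in the libraries labelled KD, against 9, 9 and 19 in control, so no fall was detectable at this depth, and LoVo results are given by label. SNORA5A had 39, 46 and 57 counts in HCT116 OE and 0 in each control, and in LoVo 1, 8 and 1 in KD and 3, 7 and 2 in control. Marker levels are in CPM, counts per M counts of the library, without the TMM normalisation used for single genes below. Of 8 epithelial and colorectal markers, 6 reached 1 CPM in each HCT116 group, where VIL1 and CDH17 did not, and 8 did in each LoVo group. Their summed level was 4559.1 to 4857.3 CPM in HCT116 OE and 4510.9 to 4621.6 in HCT116 control, and 6913.8 to 7459.8 in LoVo KD against 8149.1 to 8627.8 in LoVo control. Of 6 fibroblast and endothelial markers, 3 reached 1 CPM in each HCT116 group, with sums of 70.4 to 76.1 CPM in OE and 79.0 to 85.4 in control. In LoVo these sums were 1.8 to 2.85 CPM in KD and 2.49 to 3.28 in control. Sums of 6 leukocyte markers were 1.69 to 3.66 CPM in HCT116 OE, 2.42 to 3.53 in HCT116 control, 0.31 to 0.814 in LoVo KD and 0.968 to 1.41 in LoVo control. Sums of 7 retina markers were 1.21 to 1.52 CPM in HCT116 OE, 1.63 to 1.92 in HCT116 control, 1.37 to 1.7 in LoVo KD and 2.01 to 3.32 in LoVo control. At 1 CPM or more stood 1 leukocyte marker in HCT116 OE and 2 in HCT116 control, 1 retina marker in each LoVo group (NRL) and 1 fibroblast or endothelial marker in LoVo control. No leukocyte marker in LoVo, no retina marker in HCT116 and no fibroblast or endothelial marker in LoVo KD reached 1 CPM. Defining genes of these other cell types at 0 in every library of a group included RCVRN and SAG in HCT116 OE, RCVRN and CRX in both LoVo groups, and CD3E in both LoVo groups. The part of these marker differences in the results was not tested.

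SAT1 (spermidine/spermine N1-acetyltransferase, ENSG00000130066) lies on the plus strand of chromosome X, chrX:23783173-23786226 (GRCh38, GENCODE v29). It had 8941, 9840 and 9236 counts in HCT116 OE, against 13139, 14010 and 13605 in HCT116 control. After TMM normalisation these were 549.2, 599.6 and 612.5 CPM in OE, against 759.5, 814.6 and 843.6 CPM in control. The groups did not overlap, and the highest OE library lay well below the lowest control. SAT1 averaged 587.1 ± 33.5 CPM in OE and 805.9 ± 42.8 CPM in control (SD, n = 3 each), a log2 fold change of -0.46 (SE 0.0542, 95% interval -0.57 to -0.35), or 1.37-fold lower with OE (1.27 to 1.48). By size it was number 21 of the 65 genes called lower in HCT116. In bulk RNA, fewer cells that express a gene and less RNA per cell cannot be told apart.

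In LoVo the direction by label was the opposite. SAT1 had 1005, 1268 and 1158 counts in the libraries labelled KD, against 761, 961 and 858 in control. Normalised, these were 69.4, 79.7 and 78.0 CPM in KD, against 50.4, 63.6 and 59.2 CPM in control. Here too the groups did not overlap, though the lowest KD library and the highest control were close. The log2 fold change was 0.39 (SE 0.0816, 95% interval 0.22 to 0.56), or 1.31-fold higher with the KD label (1.17 to 1.47), number 742 in size of the 2050 genes called higher in LoVo. Over the alternatives tried, the log2 fold change stayed between -0.5 and -0.41 in HCT116 and between 0.3 and 0.47 in LoVo. With limma on log2(FPKM + 1) and on log2(FPKM + 0.1), which called 7 genes each in HCT116, SAT1 was not among the calls there.

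**Figure D1:**
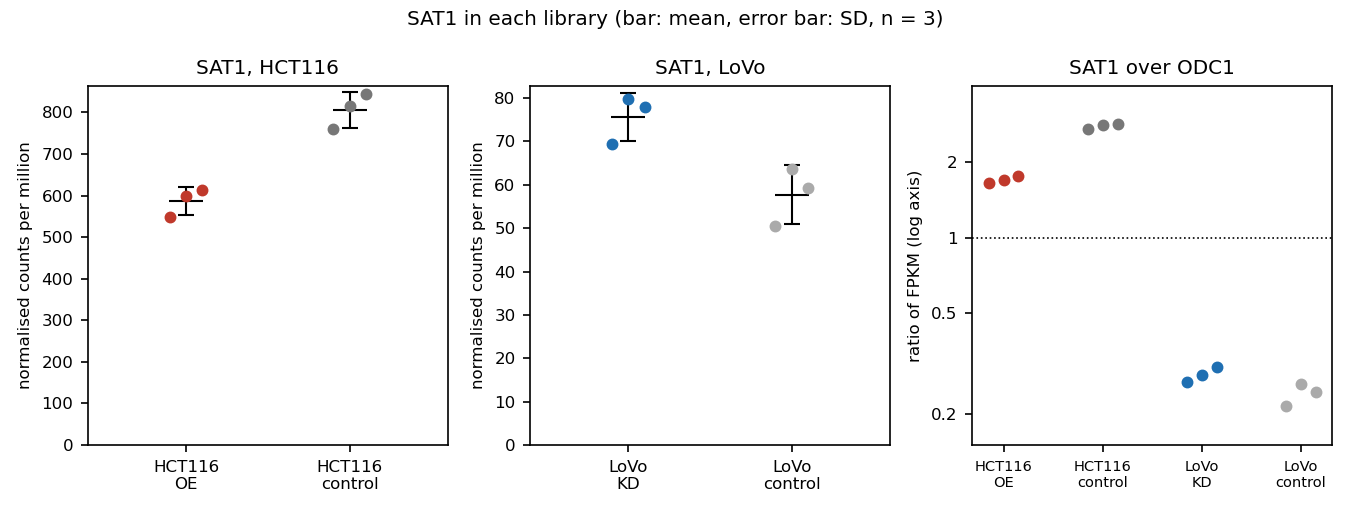
SAT1 in normalised CPM per library in HCT116 (left) and LoVo (middle), and the ratio of SAT1 to ODC1 FPKM per library on a log axis (right); points are libraries, bars the mean and error bars the SD. SAT1 is lower in each OE library than in each HCT116 control, higher in each LoVo KD library than in each LoVo control, and the ratio is above 1 in HCT116 and below 1 in LoVo.

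Promoter sequences from RefSeq (GRCh38.p14, 250 bases before to 50 bases from the start site on) were matched for 7 of the 10 genes, with 10 windows in all. They are shown for SAT1, and for ODC1 and SRM as the synthesis genes past the test in 1 line each, so that the motif matches can be seen in place. Both strands were searched for TATGACTAA (the polyamine-responsive element described for SAT1), TGANTCA (AP-1), CACGTG (the E-box that MYC and MAX bind) and TGACNNNGC (a core of the NRF2 element). TGANTCA and TGACNNNGC can match the same bases, and no window here held such a match. Capitals mark matches, and each sequence runs 5′ to 3′ along the gene's strand:
SAT1, chrX:23782923-23783222, plus strand: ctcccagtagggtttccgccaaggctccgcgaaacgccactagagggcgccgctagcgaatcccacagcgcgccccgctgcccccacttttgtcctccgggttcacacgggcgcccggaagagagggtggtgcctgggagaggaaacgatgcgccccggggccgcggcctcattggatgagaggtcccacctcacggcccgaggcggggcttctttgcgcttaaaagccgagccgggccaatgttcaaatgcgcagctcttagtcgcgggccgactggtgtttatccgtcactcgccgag
ODC1, chr2:10447963-10448262, minus strand: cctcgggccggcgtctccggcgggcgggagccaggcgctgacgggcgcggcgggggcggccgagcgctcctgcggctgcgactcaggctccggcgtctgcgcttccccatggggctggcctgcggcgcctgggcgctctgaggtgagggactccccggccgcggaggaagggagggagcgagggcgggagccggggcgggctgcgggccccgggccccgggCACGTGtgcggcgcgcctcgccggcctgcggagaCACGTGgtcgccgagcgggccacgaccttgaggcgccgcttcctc
SRM, chr1:11059969-11060268, minus strand: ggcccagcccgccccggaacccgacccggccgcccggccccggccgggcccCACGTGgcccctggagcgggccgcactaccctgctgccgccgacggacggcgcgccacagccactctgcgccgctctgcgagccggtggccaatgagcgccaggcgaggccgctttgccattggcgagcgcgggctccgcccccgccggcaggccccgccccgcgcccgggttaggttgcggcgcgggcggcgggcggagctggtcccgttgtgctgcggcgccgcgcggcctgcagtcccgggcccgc
The SAT1 window held none of the 4 patterns. Bases farther from the start site were not searched, so a site outside the window would not be seen. This ODC1 window held the E-box at -29 and at 6 relative to the start site, and the SRM window held it at -199. A further ODC1 window, chr2:10448278-10448577, held the NRF2 pattern at -5, and the OAZ2 window held the AP-1 pattern at -241. Of 35116 RefSeq promoter windows of the same length, 0.0997% held TATGACTAA, 7.71% TGANTCA, 7.26% CACGTG and 13.3% TGACNNNGC. A match is a description of letters and no evidence that a factor binds.

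The comparison of HCT116 OE with control asked which of these genes change with more SLERT. Of the 10, 9 passed the filter on low counts, and PAOX did not. By edgeR's quasi-likelihood test with Benjamini-Hochberg adjustment over all genes, at an adjusted p under 0.05, 1 of the 9 was higher with OE (ODC1), 1 was lower (SAT1) and 7 were not called. Of all 15980 genes tested, 0.507% were called higher and 0.407% lower. The OE and control libraries did not overlap for 2 of the 9, ODC1 and SAT1, and for 19.1% of all genes. The median log2 fold change of the 9 was 0.04, against -0.002 for all genes tested, and since these values were in view when the set was chosen, nothing is read from the counts.

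ODC1 (ornithine decarboxylase, ENSG00000115758, chr2:10439968-10448504, minus strand) had 446.4, 469.1 and 467.4 CPM in HCT116 OE, against 375.5, 388.3 and 398.7 CPM in HCT116 control. Each OE library lay above each control. The log2 fold change was 0.25 (SE 0.051, 95% interval 0.15 to 0.36, edgeR quasi-likelihood test, Benjamini-Hochberg adjusted p = 0.0122), or 1.19-fold. Over the alternatives tried, its log2 fold change stayed between 0.23 and 0.27, but its call did not hold in all. The call was lost without control 1 (log2 fold change 0.23, adjusted p = 0.106), control 2 (0.25, 0.0791), OE 2 (0.24, 0.0663) or OE 3 (0.24, 0.0873), and in both limma fits on log2 FPKM (0.23 in each, adjusted p = 0.173 and 0.178). Leaving out any of these libraries also lowered the genes called in HCT116 from 146 to between 37 and 43.

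The remaining genes of synthesis did not pass the test in HCT116. SRM, spermidine synthase, had 83.3, 73.3 and 89.8 CPM in OE, against 72.1, 67.9 and 76.1 CPM in control, and OE 2 lay among the controls. Its log2 fold change was 0.19 (95% interval 0.04 to 0.34, edgeR adjusted p = 0.195). With the replicate number as a block SRM passed (0.19, edgeR adjusted p = 0.0133). SMS, spermine synthase, had a log2 fold change of 0.07 (95% interval -0.04 to 0.18, edgeR adjusted p = 0.607), and AMD1, S-adenosylmethionine decarboxylase, one of 0.04 (-0.09 to 0.16, adjusted p = 0.84). The intervals of all 3 leave room for small changes.

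Among the other catabolic genes, SMOX, spermine oxidase, had 43.4, 39.1 and 46.0 CPM in OE, against 42.4, 43.8 and 42.5 CPM in control. OE held both the lowest and the highest library, and the 95% interval of the log2 fold change ran from -0.16 to 0.15 (edgeR adjusted p = 0.99). PAOX, the oxidase of acetylated polyamines, was barely detected, at 3, 1 and 4 counts in OE and 11, 6 and 4 in control, so no difference could be detected at this depth. In LoVo it had 4, 2 and 5 counts in KD and 4, 2 and 4 in control. AL360181.3, a protein-coding gene annotated on the same strand, has exons that overlap those of PAOX. It had 16, 13 and 20 counts in HCT116 OE and 15, 19 and 12 in HCT116 control. In LoVo AL360181.3 had 34, 59 and 53 counts in KD and 56, 49 and 34 in control. How reads shared by overlapping genes were counted is not given, so the level of PAOX is uncertain. Of the antizyme genes, OAZ1 had a log2 fold change of 0.10 in HCT116 (95% interval -0.03 to 0.22, edgeR adjusted p = 0.477), OAZ2 one of -0.02 (-0.14 to 0.11, 0.933) and AZIN1 one of 0.04 (-0.08 to 0.16, 0.806). The groups of each overlapped.

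**Figure D2:**
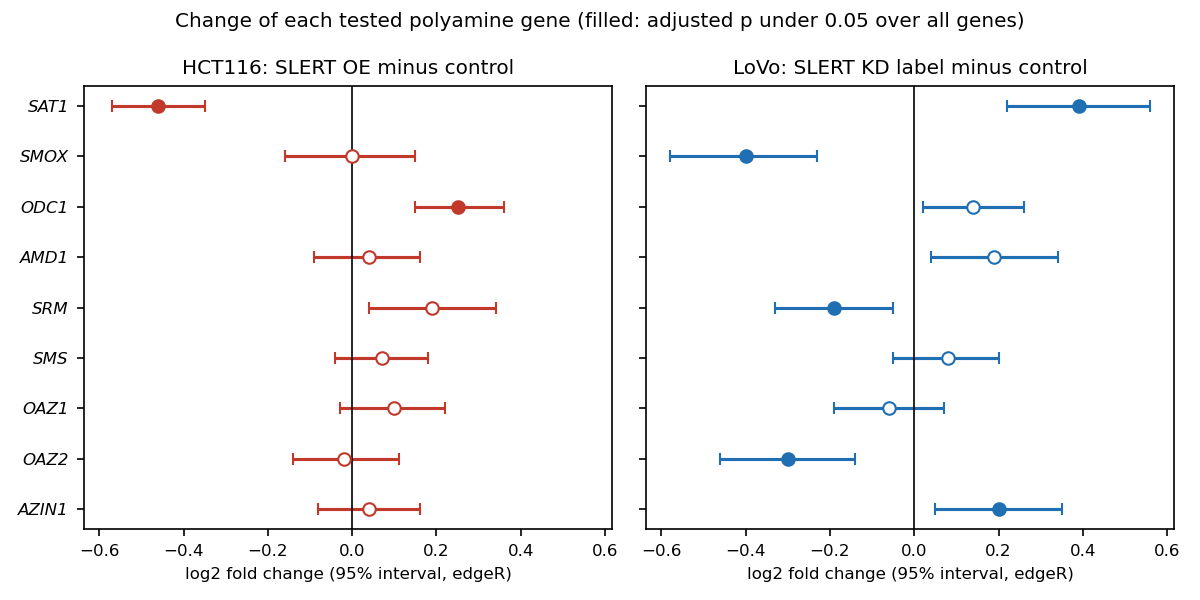
log2 fold change with its 95% interval from edgeR for the 9 tested genes, in HCT116 (OE minus control, left) and LoVo (KD label minus control, right); filled points had an adjusted p under 0.05. SAT1 is left of 0 in HCT116 and right of 0 in LoVo, and ODC1 is right of 0 in both.

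In LoVo the question was which of these genes differ with the knockdown label. Of the 9 genes tested, 2 were higher in LoVo KD (SAT1 and AZIN1), 3 were lower (SMOX, OAZ2 and SRM) and 4 were not called. Of all 16253 genes tested, 12.6% were called higher and 13.7% lower. The groups did not overlap for 6 of the 9 (SAT1, SMOX, SRM, OAZ2, ODC1 and SMS), and for 39.7% of all genes. The median log2 fold change was 0.08, against 0.0 for all genes tested. Read against a background this high, and with the set chosen as described, the counts are no result about the set.

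SMOX (ENSG00000088826, chr20:4120980-4187747, plus strand) had 29.7, 28.6 and 26.0 CPM in LoVo KD, against 38.2, 35.1 and 38.1 CPM in LoVo control. All 3 KD libraries lay below all 3 controls. SMOX fell, with a log2 fold change of -0.40 (SE 0.0856, 95% interval -0.58 to -0.23, edgeR quasi-likelihood adjusted p = 0.00127), or 1.32-fold lower. SAT1 and SMOX, the catabolic genes measured above the filter, were called in opposite directions in LoVo.

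OAZ2 (antizyme 2, ENSG00000180304, chr15:64687573-64703281, minus strand) had 50.1, 56.9 and 57.5 CPM in LoVo KD, against 62.9, 70.1 and 69.7 CPM in LoVo control. The groups did not overlap. OAZ2 fell, with a log2 fold change of -0.30 (SE 0.0752, 95% interval -0.46 to -0.14, edgeR adjusted p = 0.00481), or 1.23-fold lower. The calls of SMOX and OAZ2 held under all 15 alternatives tried. OAZ1, the more abundant antizyme, had 219.0, 209.8 and 203.2 CPM in KD and 205.5, 214.1 and 239.5 CPM in control, with overlapping groups (log2 fold change -0.06, 95% interval -0.19 to 0.07, edgeR adjusted p = 0.528). AZIN1, the antizyme inhibitor, had 155.9, 193.4 and 172.2 CPM in KD, against 143.9, 159.9 and 149.7 CPM in control. AZIN1 rose by the test (log2 fold change 0.20, SE 0.0712, edgeR adjusted p = 0.0384) although KD 1 lay below control 2. Its call was lost without control 1 (0.17, adjusted p = 0.165), control 3 (0.20, 0.133), KD 2 (0.12, 0.158) or KD 3 (0.21, 0.1), in DESeq2 (0.20, 0.0506) and in both limma fits on log2 FPKM (0.16 in each, 0.205 and 0.204). AZIN1-AS1, annotated on the opposite strand with overlapping exons, had 32, 24 and 15 counts in KD and 46, 37 and 32 in control, and the sources used here do not say if counting used strand.

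Of the synthesis genes in LoVo, SRM (ENSG00000116649, chr1:11054584-11060024, minus strand) had 86.0, 76.6 and 75.4 CPM in KD, against 89.0, 87.8 and 94.8 CPM in control. The groups did not overlap, with KD 1 just under the lowest control. SRM fell by the test (log2 fold change -0.19, SE 0.0693, edgeR adjusted p = 0.0442). The call was lost without control 1 (-0.20, adjusted p = 0.0857), control 2 (-0.21, 0.0643), control 3 (-0.16, 0.218), KD 2 (-0.16, 0.0976) or KD 3 (-0.15, 0.22), and in DESeq2 (-0.19, 0.059), without a filter (-0.19, 0.0692) and with all 12 libraries in 1 fit (-0.18, 0.0659). ODC1 had 346.2, 373.4 and 338.4 CPM in KD, against 313.0, 322.0 and 323.9 CPM in control. Each KD library lay above each control, but the adjusted p missed the threshold (log2 fold change 0.14, 95% interval 0.02 to 0.26, edgeR adjusted p = 0.069). With all 12 libraries in 1 fit, ODC1 passed (0.15, edgeR adjusted p = 0.0338), as it did with the replicate number as a block (0.14, 0.00917). AMD1 had 142.2, 181.2 and 169.5 CPM in KD and 141.9, 145.6 and 145.6 CPM in control, with KD 1 among the controls (log2 fold change 0.19, 95% interval 0.04 to 0.34, edgeR adjusted p = 0.0593). Without KD 1 it passed (0.28, adjusted p = 0.00187), as it did without a filter (0.19, 0.0339) and with all 12 libraries in 1 fit (0.19, 0.0408). AMD1 also passed with the replicate number as a block (0.18, edgeR adjusted p = 0.00448). SMS had 116.8, 118.9 and 118.5 CPM in KD and 107.1, 112.9 and 116.2 CPM in control (log2 fold change 0.08, 95% interval -0.05 to 0.20, edgeR adjusted p = 0.403).

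To ask whether the change by label was alike in both lines, all 12 libraries were fitted together. OE minus control in HCT116 was set against control minus KD in LoVo. No fall of the SLERT snoRNAs was detectable in LoVo KD, so the LoVo term rests on the label and need not be a response to SLERT. The lines share no library in this test. SAT1 changed by -0.47 (SE 0.0645) in HCT116 and -0.40 (SE 0.0736) in LoVo on the log2 scale, a difference of -0.07 with a 95% interval from -0.27 to 0.13, which leaves room for a difference in either direction. Of the 9 genes tested, 3 differed between the lines (ODC1 higher, SMOX and OAZ2 lower, HCT116 minus LoVo), beside 14.6% of 18199 genes.

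ODC1 changed by 0.24 (SE 0.0511) in HCT116 and by -0.15 (SE 0.0515) in LoVo, a difference of 0.39 (SE 0.0725, edgeR adjusted p = 0.000477), and this call held under all 16 alternatives. SMOX changed by -0.01 (SE 0.0779) in HCT116 and 0.40 (SE 0.0827) in LoVo, a difference of -0.41 (SE 0.114, edgeR adjusted p = 0.0153). That call was lost without OE 2 (-0.34, adjusted p = 0.0632) or KD 3 (-0.35, 0.0608). OAZ2 changed by -0.03 (SE 0.0656) in HCT116 and 0.29 (SE 0.0709) in LoVo, a difference of -0.32 (SE 0.0966, edgeR adjusted p = 0.0254). Its call was lost without HCT116 control 3 (-0.25, adjusted p = 0.0911), OE 2 (-0.28, 0.0822), LoVo control 2 (-0.29, 0.0681), LoVo control 3 (-0.29, 0.0796) or KD 1 (-0.26, 0.0711). AZIN1 (0.24, edgeR adjusted p = 0.0866) and AMD1 (0.22, 0.132) did not pass. Both passed without KD 1 (0.32 each, adjusted p = 0.0155 and 0.0115), and AZIN1 also without HCT116 control 2 (0.29, 0.0499). With the replicate number as a block, AZIN1 (0.24, edgeR adjusted p = 0.00292) and AMD1 (0.22, 0.0165) passed too. The 95% intervals were -0.02 to 0.30 for SMS, -0.15 to 0.22 for OAZ1 and -0.21 to 0.21 for SRM.

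**Figure D3:**
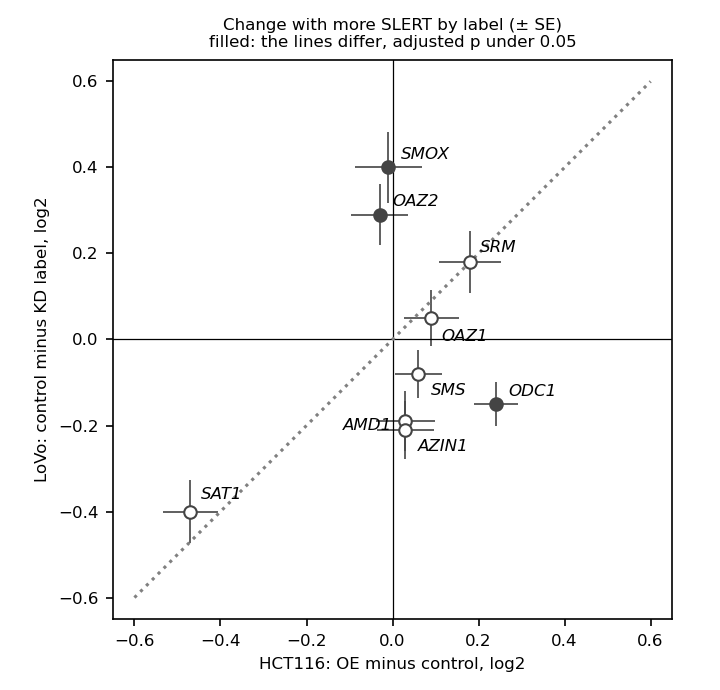
Change with more SLERT by label for the 9 tested genes, HCT116 (OE minus control, x axis) against LoVo (control minus KD, y axis), log2 with SE from the fit of 12 libraries; on the dotted line the changes are equal. SAT1 sits in the lower left, at -0.47 and -0.40, and the filled points ODC1, SMOX and OAZ2 are those whose lines differ at an adjusted p under 0.05.

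Levels of different genes were compared per length, in the FPKM that the authors deposited (reads scaled by gene length and by the total count of the library). In HCT116 SAT1 stood highest of the 10, at 234.2 ± 12.7 FPKM in OE and 326.5 ± 17.2 in control (SD, n = 3 each), followed by ODC1 at 138.0 ± 3.54 in OE and 117.8 ± 3.43 in control. SMS came next at 80.7 ± 2.79 in OE and 78.1 ± 0.881 in control, then OAZ1 at 75.8 ± 6.13 in OE and 71.9 ± 3.9 in control, and the library values of these neighbours overlapped in OE. SRM and AZIN1 lay at 38.2 to 42.9 FPKM and overlapped in both groups. OAZ2, AMD1 and SMOX lay at 14.4 to 15.9 FPKM, each overlapping the next in both groups, and PAOX was lowest, at 0.0748 ± 0.045 in OE and 0.184 ± 0.0898 in control.

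In LoVo ODC1 stood highest, at 105.2 ± 5.52 FPKM in KD and 97.5 ± 1.43 in control, with OAZ1, SMS and SRM after it without overlap. SAT1 was number 5 in KD, at 30.1 ± 2.3 FPKM, and number 6 in control, at 23.5 ± 2.7 FPKM. Its libraries overlapped those of AZIN1, at 28.0 ± 3.1 in KD and 24.9 ± 1.35 in control, so their order is not resolved. AMD1, SMOX and OAZ2 followed at 15.9 ± 1.99, 9.41 ± 0.603 and 7.06 ± 0.553 FPKM in KD, and at 14.3 ± 0.174, 12.7 ± 0.594 and 8.88 ± 0.508 in control, without overlap between neighbours. Lengths used in the FPKM ran up to 10193 bases for AMD1, against 2482 for SAT1, so the order depends on the gene models behind them.

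The ratio of SAT1, which consumes spermidine and spermine, to ODC1, which starts synthesis, was 1.64, 1.70 and 1.75 in HCT116 OE, against 2.69, 2.80 and 2.82 in HCT116 control. It was 0.267, 0.284 and 0.307 in LoVo KD, against 0.214, 0.263 and 0.243 in LoVo control. Within each line the groups did not overlap, though in LoVo the lowest KD library (0.267) and the highest control (0.263) were close. The ratio of SMOX to ODC1 was 0.109, 0.0935 and 0.111 in HCT116 OE, against 0.127, 0.127 and 0.12 in HCT116 control. In LoVo it was 0.0963, 0.086 and 0.0862 in KD, against 0.137, 0.122 and 0.132 in control. The SMOX to ODC1 ratio was lower in OE and in KD than in their controls, without overlap. In HCT116 SMOX itself overlapped between the groups and ODC1 was called higher, whereas in LoVo SMOX was called lower and ODC1 was not called. The SAT1 to ODC1 ratio was lower in OE and higher in KD. The ratio of AZIN1 to OAZ1 plus OAZ2 overlapped in HCT116, at 0.465, 0.521 and 0.419 in OE and 0.477, 0.535 and 0.429 in control. In LoVo it was 0.362, 0.461 and 0.421 in KD and 0.345, 0.365 and 0.31 in control, where KD 1 lay below control 2.

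**Figure D4:**
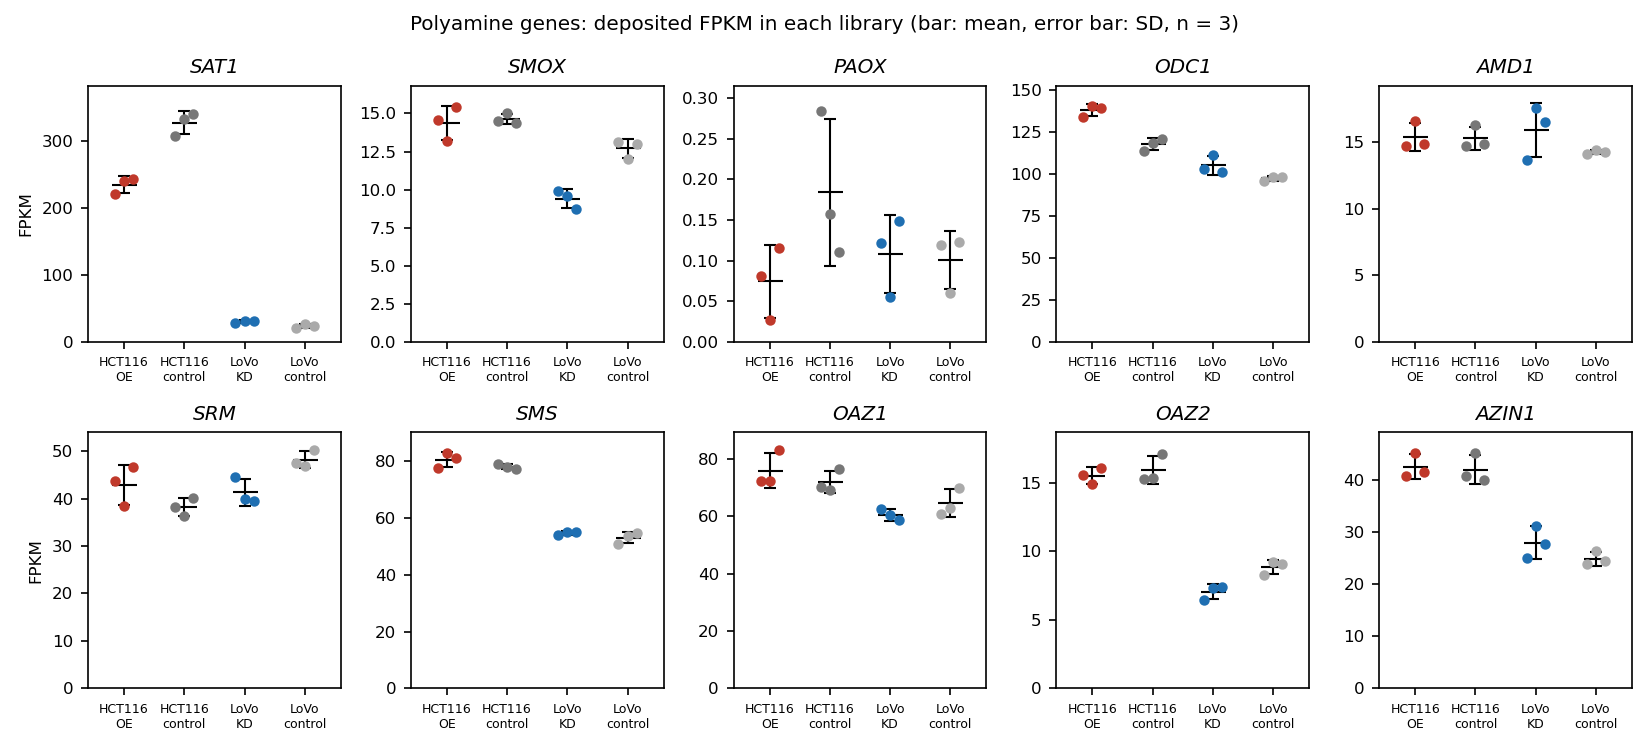
Deposited FPKM of each of the 10 genes in every library, by group; points are libraries, bars the mean and error bars the SD (n = 3), and each panel has its own axis from 0. SAT1 is 23.5 FPKM in LoVo control and 326.5 in HCT116 control, ODC1 is 97.5 in LoVo control and 117.8 in HCT116 control, and PAOX is below 0.3 in every library.

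The control groups also differed between the lines, where cell line, vector and any batch cannot be told apart. LoVo control was lower than HCT116 control for 8 of the 9 genes tested and higher for SRM, beside 38.7% of 18199 genes lower and 37.9% higher. The median log2 fold change of the 9 was -0.38, against 0.009 for all genes. SAT1 was 15-fold lower in LoVo control (13.4 to 16.6), with a log2 fold change of -3.90 (95% interval -4.06 to -3.75). The other falls were smaller. OAZ2 was 1.93-fold lower, AZIN1 1.81-fold, SMS 1.58-fold, ODC1 1.30-fold, SMOX 1.24-fold, OAZ1 1.20-fold and AMD1 1.15-fold, with edgeR adjusted p from 1.99e-13 for OAZ2 to 0.0107 for AMD1. The call of AMD1 was lost without HCT116 control 2 (log2 fold change -0.16, adjusted p = 0.0603). SRM was 1.17-fold higher in LoVo control (edgeR adjusted p = 0.0054).

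Genes with a profile like that of SAT1 over the 12 libraries were ranked by the root mean square difference of centred log2 CPM, among 13095 candidates. DSE, an epimerase of dermatan sulfate synthesis, was nearest (0.176), followed by FYN, a Src-family kinase (0.177), CLDND1, a claudin-domain membrane protein (0.18), KIF12, a kinesin (0.196), and CPE, carboxypeptidase E (0.202). Each was lower in LoVo, with log2 fold changes of LoVo control against HCT116 control from -3.87 to -3.49, so the likeness rests mainly on the gap between the lines. Within the lines their log2 fold changes were -0.06 in HCT116 and 0.37 in LoVo for DSE, -0.23 and 0.32 for FYN, -0.17 and 0.14 for CLDND1, -0.21 and 0.26 for KIF12, and -0.14 and 0.54 for CPE. These are descriptions from 12 libraries that share the lines.

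A wider list of 32 genes held precursor supply, methylthioadenosine salvage, further catabolic enzymes, transport and hypusination, a protein modification built from spermidine. In HCT116, 26 of them were tested, 1 was higher with OE (EIF5A) and 0 were lower by edgeR, with a median log2 fold change of 0.05 against -0.002 for all genes, and 6 did not overlap. Of all genes tested, 0.507% were higher, 0.407% lower and 19.1% did not overlap, so these counts are no result about the list. EIF5A, the translation factor that carries hypusine, had 588.1, 590.5 and 640.9 CPM in OE, against 505.9, 508.5 and 518.1 CPM in control. Each OE library lay above each control (log2 fold change 0.25, SE 0.0511, edgeR adjusted p = 0.0143). Its call was lost without control 1 (0.24, adjusted p = 0.0891), control 2 (0.24, 0.0915) or OE 3 (0.21, 0.143) and in both limma fits on log2 FPKM (0.22 each, 0.198 and 0.2).

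In LoVo, 26 of the wider list were tested, 4 were higher with the KD label and 3 lower, with a median of 0.01 against 0.0 for all genes, and 10 did not overlap. Set beside 12.6% of all genes higher, 13.7% lower and 39.7% without overlap, these counts are no result about the list either. ARG2, the mitochondrial arginase that yields ornithine, had 18.9, 17.5 and 16.6 CPM in KD, against 10.6, 8.8 and 9.86 CPM in control. Every KD library was above every control, and ARG2 rose with a log2 fold change of 0.86 (SE 0.119, edgeR adjusted p = 1.22e-05). GPC1, a heparan sulfate proteoglycan known to take part in polyamine uptake, had 37.9, 26.5 and 35.8 CPM in KD, against 59.4, 50 and 46.3 CPM in control. It fell, without overlap, with a log2 fold change of -0.64 (SE 0.108, edgeR adjusted p = 0.000126).

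ATP13A2, the lysosomal polyamine exporter, fell as well in LoVo, to 64.2 ± 5.83 CPM in KD, against 82.1 ± 7.61 CPM in control (log2 fold change -0.36, edgeR adjusted p = 0.00182). Among genes of methylthioadenosine salvage, MRI1 fell to 18.7 ± 2.77 CPM in KD, against 25.5 ± 1.81 in control (-0.45, edgeR adjusted p = 0.00372). ENOPH1, of the same salvage route, stood at 84.0 ± 2.57 CPM in KD and 71.9 ± 4.36 in control (0.23, edgeR adjusted p = 0.017). MAT2A, which makes S-adenosylmethionine, stood at 445.8 ± 24.1 CPM in KD and 394.1 ± 5.87 in control (0.18, edgeR adjusted p = 0.0219). EIF5A2, the second hypusinated factor, stood at 25.6 ± 2.75 CPM in KD and 21.1 ± 0.947 in control (0.28, edgeR adjusted p = 0.0396). The calls of ARG2, GPC1, ATP13A2 and MRI1 held under all 15 alternatives. ENOPH1 was lost without control 1 (0.18, adjusted p = 0.107) or control 3 (0.23, 0.0661). MAT2A was lost without control 1 (0.17, 0.0609), control 3 (0.17, 0.0992), KD 2 (0.14, 0.0604) or KD 3 (0.19, 0.0621) and in both limma fits on log2 FPKM. EIF5A2 was lost without control 1 (0.28, 0.103), control 2 (0.31, 0.0556), control 3 (0.25, 0.149), KD 2 (0.21, 0.154) or KD 3 (0.27, 0.111), and in 3 further fits.

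Of 28 wider genes tested over all 12 libraries, 5 differed between the lines in the change with more SLERT by label, beside 14.6% of all genes. The difference, HCT116 minus LoVo, was 0.87 for ARG2 (edgeR adjusted p = 0.00914), -0.61 for GPC1 (0.00304), 0.39 for ENOPH1 (0.00282), -0.40 for ATP13A2 (0.0185) and 0.41 for EIF5A2 (0.0431). Those of ARG2, GPC1 and ENOPH1 held under all 16 alternatives. That of ATP13A2 was lost without HCT116 control 1 (-0.34), OE 2 (-0.32), LoVo control 1 (-0.35), LoVo control 3 (-0.35) or KD 2 (-0.32). That of EIF5A2 was lost without a filter (0.41), and without HCT116 control 1 or 3, OE 2 or 3, LoVo control 1 or 3, or KD 2 or 3, at values from 0.34 to 0.42. MRI1 did not pass (-0.45, edgeR adjusted p = 0.108), but did without HCT116 control 3 (-0.57, 0.0384) and with the replicate number as a block (-0.45, 0.0387).

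**Figure D5:**
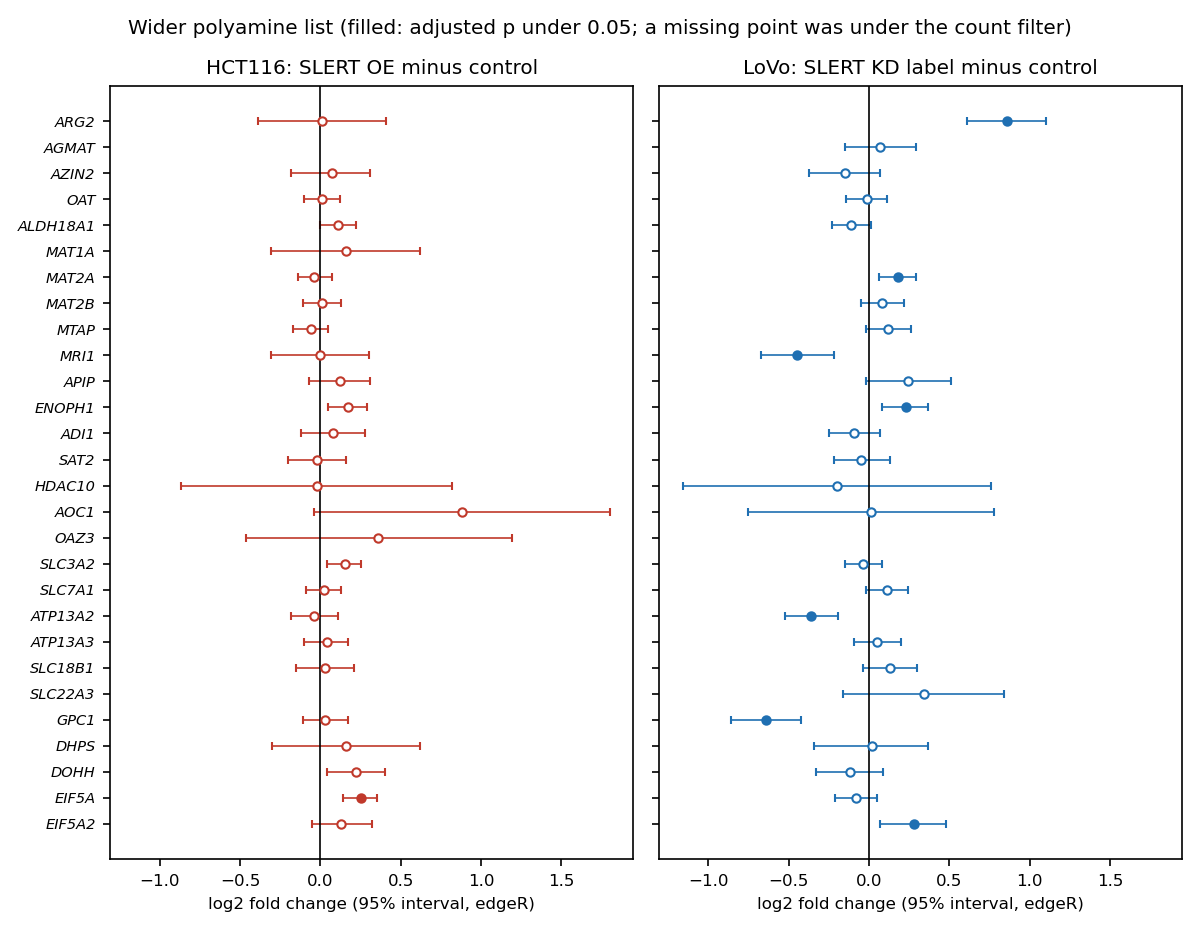
log2 fold change with its 95% interval from edgeR for genes of the wider polyamine list, in HCT116 (OE minus control, left) and LoVo (KD label minus control, right); filled points had an adjusted p under 0.05, and a missing point was under the count filter. EIF5A is filled in HCT116, and ARG2 and GPC1 lie farthest from 0 among the filled points in LoVo.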

How the data were processed

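Read counts per gene were deposited by the authors as whole numbers, not normalised, as the values show. The FPKM table, also deposited by the authors, equals count over gene length and column total (largest relative deviation 4.09e-13). Per the submitters' processing notes, alignment used HISAT2 2.1.0 and the build GRCh38. The sources used here do not give the counter, the annotation release or the strand setting. The extract protocol per the labels speaks of retinas, against the labelled cell lines. The heading of the HCT116 control columns is the least certain mapping.

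Coordinates came from GENCODE v29. Symbols came from a separate gene name list, filled from GENCODE v29 where that list had no symbol. Each line was fitted alone with edgeR 4.0.16 in R 4.3.3 (TMM factors, filterByExpr, quasi-likelihood F test, Benjamini-Hochberg adjustment over all genes tested, threshold 0.05), and all 12 libraries together for the differences between lines. Libraries of a group differed by more than sampling noise (chi-square per degree of freedom 2.5 to 7.42), so no pair looked like 1 library deposited more than once, and each was counted as 1 library. This does not show that they are biological replicates. The fits were also tested on counts simulated with the same dispersion for every gene and no replicate structure. On 15748 genes, the HCT116 fit recovered 67.7% of changes of 0.5 and 93.0% of changes of 1 on the log2 scale with 8 false calls in all. The LoVo fit, on 15992 genes, recovered 67.0% and 89.9% with 9 false calls. Real genes need not share a dispersion, so these figures need not hold for the libraries here. Alternatives were DESeq2 1.42.0, limma 3.58.1 (voom, and trend on log2 FPKM with a pseudocount of 1 or 0.1), RLE and upper quartile factors, no filter, a replicate block and leaving out each library. Whether replicate numbers pair the libraries is not settled. Deviations from the group mean correlated at 0.08, 0.09 and 0.08 between same-numbered libraries in HCT116, and at 0.13, 0.18 and -0.01 in LoVo. Between libraries with different numbers the correlations ran from -0.11 to 0.03 in HCT116 and from -0.16 to 0.05 in LoVo. The main fits leave a pairing out, and the block is given as an alternative.

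The members and lists were chosen with earlier results of these data known. Named genes were the 10 members, the wider genes past the threshold in either line, the SLERT snoRNAs and TBRG4. The 5 profiles nearest to SAT1 (average log2 CPM of at least 1) were named too. Pseudogenes took few reads, with ODCP at 0.31% of the ODC1 counts, the highest share. Protein sequences were not used here. A further retina marker is not reported here.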

Additional observations from a re-analysis of the deposited data

Results flagged for a closer look

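These results were marked because the change with more SLERT by label differed between HCT116 and LoVo in the test of that difference (edgeR quasi-likelihood test, Benjamini-Hochberg adjusted over 18199 genes, of which 14.6% passed). All values are HCT116 minus LoVo on the log2 scale. ODC1 differed by 0.39 (adjusted p = 0.000477), with each OE library above each HCT116 control and each LoVo KD library above each LoVo control. SMOX differed by -0.41 (adjusted p = 0.0153), and OAZ2 by -0.32 (adjusted p = 0.0254). Of the wider list, ARG2 differed by 0.87 (adjusted p = 0.00914), GPC1 by -0.61 (0.00304), EIF5A2 by 0.41 (0.0431), ATP13A2 by -0.40 (0.0185) and ENOPH1 by 0.39 (0.00282). No fall of the SLERT snoRNAs was detectable at this depth in the LoVo libraries labelled KD, so the LoVo term rests on the label.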

How the results depend on the processing

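In HCT116, 146 genes were called. The count was 254 with DESeq2, 256 without a filter and 7 in each limma fit on log2 FPKM, and 37 to 287 when 1 library was left out. The members called were 2, but 0 in each limma fit on log2 FPKM and 1 to 2 when 1 library was left out, and the wider genes called were 1, but 0 in each of those limma fits and 0 to 1. The share of higher calls was 55.5%, against 41.8% with upper quartile factors, 63.4% with DESeq2, 57.1% on log2 FPKM and 44.0% with all 12 libraries in 1 fit. In LoVo, 4278 genes were called, 2845 on log2(FPKM + 1) and 2769 to 4813 when 1 library was left out; the share of higher calls, 47.9%, was 34.0% on log2(FPKM + 1) and 34.2% on log2(FPKM + 0.1). LoVo members called were 5, with 3 in DESeq2 and 3 to 6 when 1 library was left out, and wider genes 7, with 4 to 7. For the difference between lines, 2648 genes were called, 1787 to 3108 when 1 library was left out, and 3 members, with 1 to 4. Between the control groups 13945 genes were called, and 13624 to 14329 genes and 8 to 9 members when 1 library was left out. Without a filter 15464 genes were called there, and 12764 (70.1% of those tested) with the replicate number as a block. With the replicate number as a block, 1322 genes (8.27% of those tested), 3 members and 3 wider genes were called in HCT116. In LoVo these were 5588 genes (34.4%), 7 members and 9 wider genes. For the difference between lines they were 4015 genes (22.1%) and 5 members. Beside such shares the member counts are no result about the set. Under the block SRM also passed in HCT116 (0.19, edgeR adjusted p = 0.0133), ODC1 (0.14, 0.00917) and AMD1 (0.18, 0.00448) in LoVo, and AZIN1 (0.24, 0.00292), AMD1 (0.22, 0.0165) and MRI1 (-0.45, 0.0387) in the difference; the same-number correlations of deviations were 0.08, 0.09 and 0.08 in HCT116, where each library correlated best with its own number, and 0.13, 0.18 and -0.01 in LoVo. Signs turned for 5 members in HCT116 and LoVo and for 3 in the difference between lines, none of them called there. In HCT116, leaving out 1 library gave OAZ2 from -0.05 to 0.04 and SMOX from -0.06 to 0.06, with SMOX at 0.00206 without a filter, and without OE 2 gave AMD1 at -0.02 and AZIN1 at -0.00318. Leaving out 1 library gave OAZ1 from -0.11 to 0.00694 in LoVo, and in the difference between lines OAZ1 from -0.04 to 0.11, SAT1 from -0.15 to 0.01 and SRM from -0.07 to 0.08. The cause was not tested. With 3 libraries a group, an exact permutation test cannot go below p = 0.1, and PAOX had too few counts to show a difference.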
